A study of Homo sapiens with 9 samples.

Results

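The cell cycle and DNA replication genes described here are 56 of the 19775 genes measured on 9 microarrays of human embryonic stem cell (hESC) lines. The study set undifferentiated cells beside cultures steered towards otic progenitors, from which the inner ear forms. They are a list of named genes: 9 G1 cyclins and kinases, 6 E2F and pocket proteins, 16 genes of S phase, licensing and replication, and 25 genes of G2 and mitosis. Each was read from a probe set whose platform annotation names only that gene, and where a gene had several, from the one that was brightest on average across all 9 arrays. All 56 were measured. The arrays came from 3 established lines, Shef3, H14 and Shef1, with 1 array per line in each of 3 groups. The group hESC held undifferentiated cells at day 0, grown on inactivated mouse embryonic fibroblasts with 20% knockout serum replacement and basic fibroblast growth factor (FGF) at 4 ng/ml. For the other groups, cells of the same lines were dispersed with trypsin, plated on laminin without feeders and cultured for 14 days in DFNB, a DMEM and F12 medium with the N2 and B27 supplements. The group named DFNB had the medium alone, and the group named FGF3+10 had it with FGF3 and FGF10, each at 50 ng/ml. Per the labels, 200 ng of total RNA per sample was amplified from its 3' end and labelled with biotin. Nothing in the labels says that lines were cultured more than once, so p-values measure the spread between arrays that differ in line.

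A cell enters the cycle when D-type cyclins with CDK4 and CDK6, and then E-type cyclins with CDK2, phosphorylate the retinoblastoma family of pocket proteins, which releases E2F transcription factors to switch on the genes of DNA replication. Origins are licensed in G1 by ORC, CDC6 and CDT1, which load the MCM helicase, and GMNN prevents a repeat of licensing in the same cycle. Genes of G2 and mitosis peak later, under the MYBL2 and FOXM1 factors with the DREAM complex as their repressor. hESC are known for a short G1 phase and for abundant transcripts of replication and mitosis, and the question addressed here is how these classes differed between the undifferentiated cells and the day 14 cultures, and between lines.

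Values are on a logarithmic scale taken as log2. The base is not given in the sources used here, so a difference of 1 equals a doubling only if that assumption holds. Each array has a median of 3.20 over its probe sets. The number of arrays limits the precision. In bulk samples such as these, fewer cells of a type and less RNA per cell cannot be told apart. The control probe sets of GAPDH and ACTB were brighter at the 3' end than at the 5' end by 0.14 to 0.53 and by 0.08 to 0.69. This measure of RNA integrity differed by -0.14 between DFNB and hESC for GAPDH, for which a two-sided exact permutation test gave p = 0.1, its lower limit with 3 arrays a group, and the other 5 such comparisons gave p from 0.4 to 0.9. The poly-A spike-ins, foreign transcripts added before labelling, averaged 7.21 to 7.28 on the 3 Shef1 arrays and 4.72 to 5.43 on the other 6. The Shef1 arrays thus stood apart from those of the other lines in every group.

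Between day 14 and the undifferentiated cells, no cell cycle gene passed the test. The genes of G2 and mitosis were lower on average in the mean of both media, by a median of -0.50 with 22 of 25 lower, and those of S phase by -0.34 with 12 of 16 lower. Without Shef3 these medians were -0.28 and 0.08, so the direction in S phase rests on that line. The G1 cyclins and kinases had a median of 0.10 with 3 of 9 lower, and the E2F and pocket proteins 0.20 with 1 of 6 lower. Over all 56 the median was -0.36 with 38 lower, against -0.19 and 61.9% lower over all genes. Quantile normalisation between arrays moved the median of all genes to -0.07 and that of the 56 to -0.18, of S phase genes to -0.14 and of G2 and mitosis genes to -0.33. With limma and Benjamini-Hochberg adjustment over all genes, 0 of 56 were called at an adjusted p under 0.05, where 277 genes or 1.40% of all genes were called. At an unadjusted p under 0.05 it was 2 of 56 or 3.57%, against 18.2% of all genes, and these were E2F2 (higher) and BUB1B (lower). In the fit with a replicate block for the line, 612 genes or 3.09% were called and again none of the 56, of which 6 had an unadjusted p under 0.05 (23.9% of all genes).

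**Figure D1:**
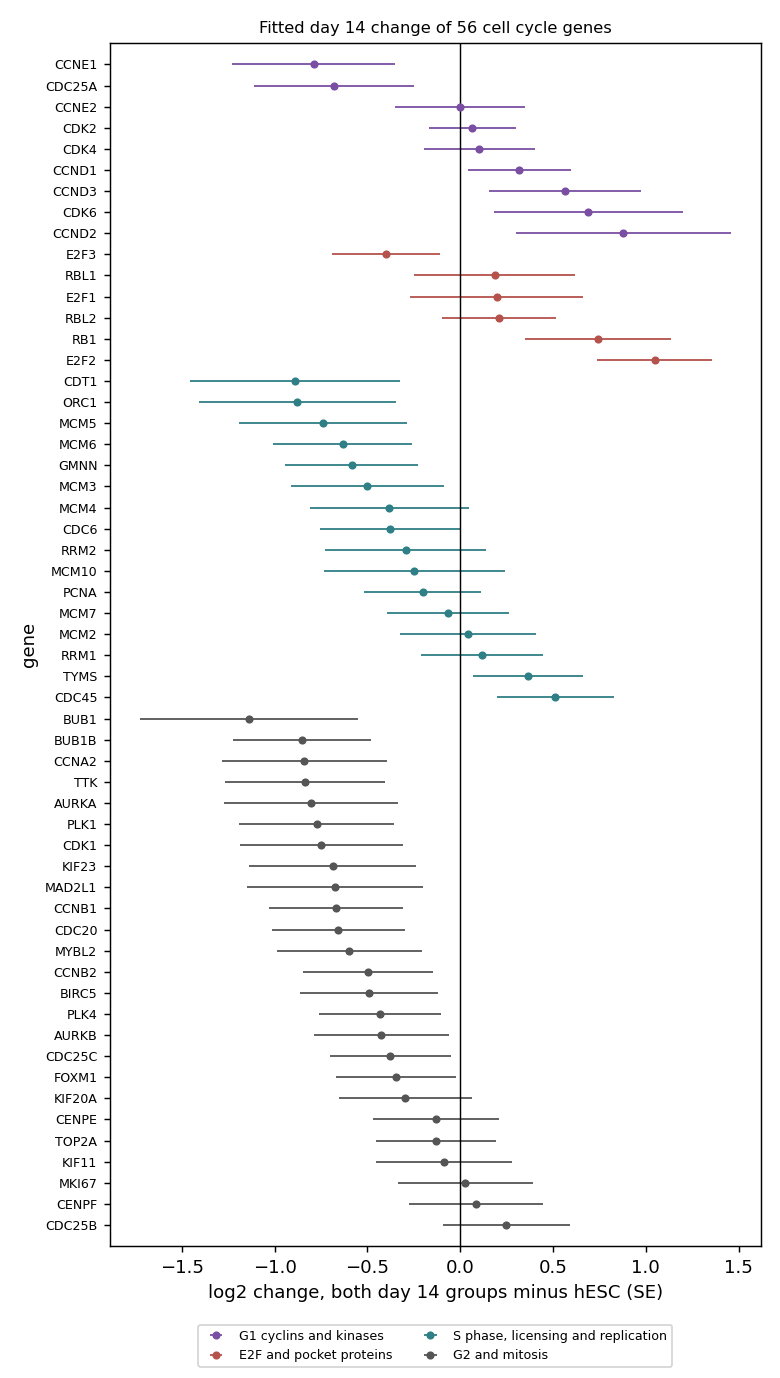
Each point is the fitted log2 difference of 1 gene between both day 14 groups together (6 arrays) and hESC (3 arrays), on the horizontal axis, with its standard error as the bar; colours mark the 4 classes. The points run from -1.14 for BUB1 to 1.05 for E2F2, and most genes of G2 and mitosis lie left of 0.

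The same held for each medium taken alone. In DFNB 40 genes or 0.202% of all genes were called and 0 of the 56, with 189 genes or 0.956% called under the replicate block. At an unadjusted p under 0.05 it was 1 of the 56 (E2F2), against 15.8% of all genes, and under the block 7 against 21.5%. In FGF3+10 35 genes or 0.177% were called and 0 of the 56, with 115 genes or 0.582% under the block. Here too E2F2 was the only one of the 56 with an unadjusted p under 0.05, against 12.0% of all genes, and under the block there were 3 against 16.9%. G2 and mitosis genes had medians of -0.59 in DFNB (23 of 25 lower) and -0.41 in FGF3+10 (21 of 25 lower), and S phase genes -0.43 (13 of 16) and -0.25 (11 of 16). Without Shef3 the S phase medians were -0.07 and 0.28, and those of G2 and mitosis -0.52 and -0.09. Leaving out only the FGF3+10 array of Shef3 gave 0.08 for S phase in FGF3+10. Quantile normalisation moved the S phase medians to -0.28 and -0.04 and those of G2 and mitosis to -0.41 and -0.25. Over all genes, 60.5% were lower in DFNB and 62.4% in FGF3+10. Both comparisons share the hESC arrays, and so are not independent.

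The class means on each array showed that the lines did not behave alike. In the order Shef3, H14 and Shef1, the S phase genes averaged 9.56, 9.30 and 8.82 in hESC, 8.51, 8.69 and 9.38 in DFNB, and 8.27, 9.19 and 9.54 in FGF3+10. The G2 and mitosis genes averaged 8.94, 9.17 and 8.68 in hESC, 8.21, 8.13 and 8.79 in DFNB, and 7.77, 8.83 and 8.95 in FGF3+10. For both classes Shef3 was lower on each day 14 array than in hESC, Shef1 was higher on each, and H14 was lower in DFNB with a smaller gap in FGF3+10. The G1 class averaged 8.83, 8.48 and 8.03, then 8.51, 8.83 and 8.57, then 8.43, 8.78 and 8.33, and so was higher at day 14 than in hESC in H14 and Shef1 and lower in Shef3. The E2F and pocket proteins averaged 6.54, 6.37 and 6.48, then 6.77, 6.58 and 6.90, then 6.61, 6.84 and 7.05, means that were higher at day 14 in each line. In Shef3, however, 3 of the 6 genes were lower on each medium.

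**Figure D2:**
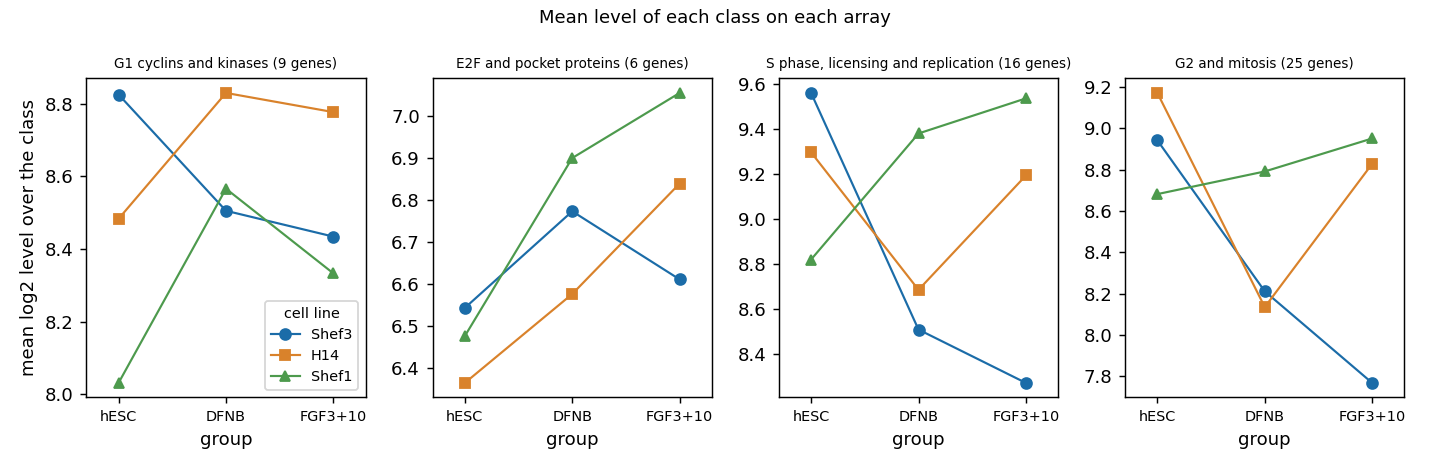
Mean log2 level of each class of genes (vertical axis, with its own range in each panel) on each array, by group (horizontal axis) and cell line (colour and symbol, 1 array per point). For the 16 S phase genes the Shef3 line runs from 9.56 in hESC to 8.27 in FGF3+10, and the Shef1 line from 8.82 to 9.54.

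The D-type cyclins, which start the passage through G1, had higher means at day 14. In the order Shef3, H14 and Shef1, which holds for all values below, CCND2 measured 10.19, 10.56 and 9.31 in hESC, 11.33, 11.92 and 10.04 in DFNB, and 11.25, 11.40 and 9.46 in FGF3+10. It was higher at day 14 in each line and medium, yet the Shef1 arrays of all 3 groups lay below every other array, so the groups overlapped. Other probe sets differed in Shef1: the next brightest was below its hESC value of 7.09 there, at 6.88 in DFNB and 6.14 in FGF3+10. The difference of 0.88 ± 0.58 (SE) had an adjusted p of 0.453 in limma and 0.103 with the cell line as block. CCND3 gave 6.77, 7.05 and 6.09 in hESC, 7.54, 8.01 and 6.63 in DFNB, and 7.49, 7.20 and 6.37 in FGF3+10. Like CCND2 it was higher than hESC on every day 14 array of the same line, by 0.57 ± 0.41 on average (limma adjusted p = 0.494). CCND1 gave 9.59, 8.94 and 8.88 in hESC, 9.18, 9.82 and 9.40 in DFNB, and 9.58, 9.52 and 9.21 in FGF3+10. It was higher at day 14 in H14 and Shef1 but not in Shef3, with a mean difference of 0.32 ± 0.28 (limma adjusted p = 0.576). The other CCND1 probe set was below its hESC value in Shef1, at 8.20 in hESC, 7.05 in DFNB and 7.33 in FGF3+10.

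CCNE1 and CDC25A, which act late in G1, had lower means. CCNE1, the cyclin that activates CDK2, measured 7.94, 8.65 and 8.02 in hESC, 6.80, 6.98 and 7.83 in DFNB, and 6.59, 7.97 and 8.30 in FGF3+10. It was below hESC in Shef3 and H14 on both media, and in Shef1 in DFNB only, for a difference of -0.79 ± 0.44 (limma adjusted p = 0.375). Its other probe set was dim, and when both were averaged the DFNB difference of -1.0 became 0.01. CDC25A, the phosphatase that removes inhibitory phosphates from CDK2, measured 8.49, 8.16 and 7.41 in hESC, 6.75, 7.10 and 8.0 in DFNB, and 6.61, 7.55 and 8.01 in FGF3+10. Its hESC value was the highest of the line in Shef3 and H14 and the lowest in Shef1, and the mean difference was -0.68 ± 0.43 (limma adjusted p = 0.438). In H14 both other CDC25A probe sets were higher at day 14 than in hESC. The kinases CDK2 and CDK4 differed by 0.06 and 0.10 on average, CDK6 by 0.69 and CCNE2 by less than 0.01 in size. Of the 5 other CDK6 probe sets with a mean level of at least 4, 2 had the opposite sign, at -2.59 and -0.93.

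Among the E2F factors and pocket proteins, E2F2 had the largest statistic of all 56 genes. This activating E2F measured 4.99, 5.08 and 4.28 in hESC, 5.56, 5.82 and 5.75 in DFNB, and 5.39, 6.29 and 6.20 in FGF3+10. All 6 day 14 arrays lay above all 3 hESC arrays, which 4.23% of all genes showed in this direction. The means were 4.79 ± 0.44 (SD, n = 3) and 5.83 ± 0.35 (SD, n = 6), and the difference of 1.05 ± 0.31 had a limma adjusted p of 0.138, or 0.107 with the cell line as block. RB1, the retinoblastoma protein that holds E2F in check, measured 6.93, 7.17 and 8.22 in hESC, 8.0, 7.79 and 8.88 in DFNB, and 8.01, 7.83 and 8.58 in FGF3+10. It was higher on both day 14 arrays of each line, and Shef1 was the highest line in each group, so that its hESC array exceeded the day 14 arrays of the other lines. The difference was 0.74 ± 0.39 (limma adjusted p = 0.355, and 0.119 with the block).

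The other members of that class differed less. E2F3, a further activator, gave 9.12, 9.14 and 8.79 in hESC, 8.26, 8.44 and 8.95 in DFNB, and 8.40, 8.46 and 9.19 in FGF3+10. It was lower at day 14 in Shef3 and H14 and higher in Shef1 (-0.40 ± 0.29, limma adjusted p = 0.494). The other E2F3 probe set differed by 0.01 on average. In H14 it was higher at day 14, at 5.35 in hESC, 6.14 in DFNB and 5.75 in FGF3+10. RBL2, the pocket protein p130 of resting cells, gave 6.19, 6.87 and 7.46 in hESC, 7.25, 6.93 and 7.0 in DFNB, and 6.96, 7.02 and 7.14 in FGF3+10. It was higher at day 14 in Shef3, nearly level in H14 and lower in Shef1 (0.21 ± 0.31, limma adjusted p = 0.763). That is the reverse of the order seen for E2F3 on the probe set used. E2F1 gave 5.76, 4.79 and 3.99 in hESC, 5.41, 5.29 and 4.31 in DFNB, and 5.37, 5.44 and 4.41 in FGF3+10. Shef1 was the lowest line in every group, and its hESC value was the only one of all 56 genes on any array below a level of 4. RBL1, the pocket protein p107, differed by 0.19 on average.

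**Figure D3:**
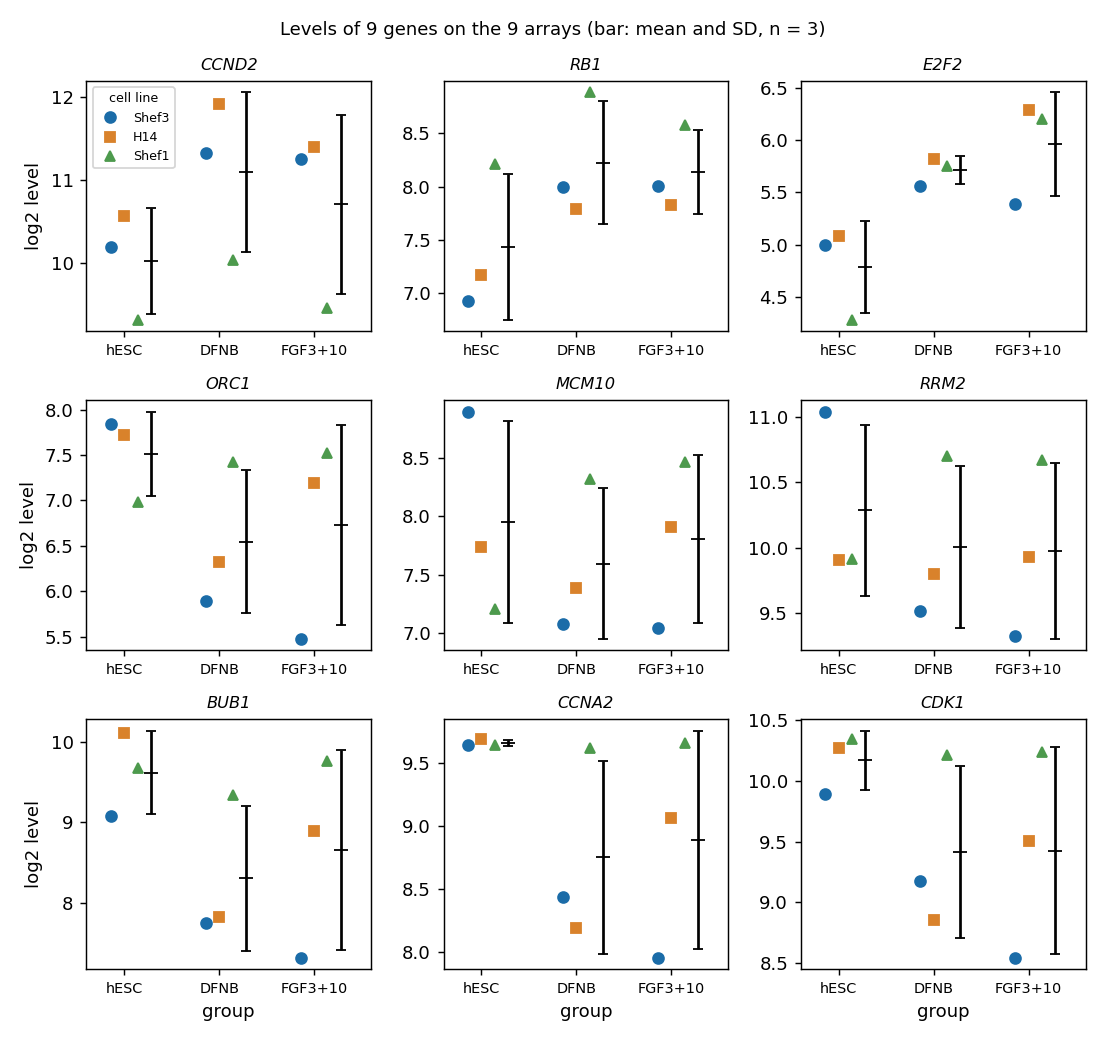
Log2 level (vertical axis, with its own range in each panel) of 9 genes on the 9 arrays, by group (horizontal axis) and cell line (colour and symbol), with the mean and SD of the 3 arrays of each group as a bar. CCNA2 measured 9.64 to 9.69 on the hESC arrays and spread from 7.95 to 9.66 in FGF3+10.

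The genes that license origins had some of the largest negative differences within Shef3. ORC1, the largest subunit of the origin recognition complex, measured 7.84, 7.72 and 6.99 in hESC, 5.90, 6.32 and 7.42 in DFNB, and 5.48, 7.19 and 7.53 in FGF3+10. Shef3 and H14 were below their hESC arrays on both media and Shef1 was above, for a mean difference of -0.88 ± 0.53 (limma adjusted p = 0.417). MCM6, a subunit of the replicative helicase, measured 10.50, 10.77 and 10.21 in hESC, 9.46, 9.67 and 10.28 in DFNB, and 9.07, 10.16 and 10.51 in FGF3+10. It was again lower in Shef3 and H14 and slightly higher in Shef1 (-0.63 ± 0.37, limma adjusted p = 0.404). The RefSeq promoters of both genes are shown because these are the S phase genes with the largest statistics, and because the E2F sites and CCAAT boxes that S phase promoters are known for are in them. Each is the 200 bases before the start of the gene on its own strand in build GRCh38.p14, for MCM6 chr2:135876444-135876643 (minus strand) and for ORC1 chr1:52404424-52404623 (minus strand). Capitals mark matches to the CCAAT box (CCAAT) or an E2F site (the letters TTGGCGC, the letters TTCCCGC, the letters TTCGCGC or the letters TTGCCGC) on either strand, and some neighbouring matches share bases.
MCM6: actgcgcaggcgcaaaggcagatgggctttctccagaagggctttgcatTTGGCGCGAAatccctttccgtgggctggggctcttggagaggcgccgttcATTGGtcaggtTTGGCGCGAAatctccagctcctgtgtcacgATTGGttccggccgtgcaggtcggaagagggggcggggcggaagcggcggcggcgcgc
ORC1: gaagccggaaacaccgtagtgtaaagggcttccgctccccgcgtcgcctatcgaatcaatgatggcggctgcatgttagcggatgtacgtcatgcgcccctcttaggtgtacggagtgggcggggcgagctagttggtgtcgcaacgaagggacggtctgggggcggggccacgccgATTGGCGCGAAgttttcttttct
MCM6 held 2 CCAAT boxes and 4 E2F matches, which are 2 overlapping pairs on opposite strands, and ORC1 held 1 CCAAT box that overlaps 2 E2F matches.

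Promoters of 300 bases, 250 before and 50 after the start, were found for 46 of the 56 genes. An E2F match was in 10 of 14 S phase promoters (71.4%), in 5 of 21 of G2 and mitosis (23.8%) and in 4 of 6 of the E2F and pocket proteins, against 13.1% of 27305 promoters in the table. A CCAAT box was in 10 of 14 S phase promoters and in 15 of 21 of G2 and mitosis (71.4% each), against 35.7%. Among the 15384 promoters of genes measured here, 17% had an E2F match and 36.1% a CCAAT box. These matches describe the letters in the window and were not tested against the array values.

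Among other licensing and helicase genes, GMNN and MCM5 followed the pattern of ORC1 and MCM6. MCM2 and MCM10 did so in Shef3 and Shef1, but in H14 in DFNB only. GMNN, the inhibitor of CDT1, measured 10.75, 10.24 and 9.98 in hESC, 9.24, 9.56 and 10.20 in DFNB, and 9.15, 10.02 and 10.26 in FGF3+10 (difference -0.58 ± 0.36, limma adjusted p = 0.423). MCM5 measured 10.75, 9.80 and 8.99 in hESC, 8.75, 8.93 and 9.37 in DFNB, and 8.37, 9.62 and 9.61 in FGF3+10 (-0.74 ± 0.45, limma adjusted p = 0.424). For both, the hESC value was the highest of the line in Shef3 and H14 and the lowest in Shef1. MCM2 measured 9.79, 9.72 and 8.60 in hESC, 9.20, 9.31 and 9.57 in DFNB, and 8.83, 9.77 and 9.82 in FGF3+10, which left a mean difference of 0.04 ± 0.37. MCM10, which helps to activate the helicase, measured 8.89, 7.74 and 7.20 in hESC, 7.08, 7.39 and 8.32 in DFNB, and 7.04, 7.91 and 8.46 in FGF3+10, with a mean difference of -0.25 ± 0.49. In both of these Shef3 was lower at day 14 on both media and Shef1 higher on both.

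On the probe sets used, PCNA and RRM2 had mean differences closer to 0 than those of ORC1, MCM6, GMNN and MCM5. PCNA, the sliding clamp of DNA polymerases, measured 10.57, 10.37 and 10.34 in hESC, 9.92, 10.05 and 10.65 in DFNB, and 9.68, 10.27 and 10.80 in FGF3+10. Its difference of -0.20 ± 0.32 turned to 0.07 after quantile normalisation. RRM2, the inducible subunit of ribonucleotide reductase, measured 11.04, 9.90 and 9.91 in hESC, 9.52, 9.80 and 10.70 in DFNB, and 9.33, 9.93 and 10.67 in FGF3+10. Shef3 was lower by more than 1.5 on both media, H14 was nearly level and Shef1 was higher, for a mean difference of -0.29 ± 0.44. The other RRM2 probe set, nearly as bright with a mean of 9.82 against 10.09, gave -0.80. It was lower at day 14 in H14 too, at 10.24 in hESC, 9.48 in DFNB and 9.87 in FGF3+10, and in Shef1, at 10.21, 10.05 and 10.07, so the direction in Shef1 differs between the probe sets. Of the S phase genes not listed by array, CDT1 (-0.89), MCM3 (-0.50), MCM4 (-0.38), CDC6 (-0.38) and MCM7 (-0.06) had lower means at day 14. RRM1 (0.12), the other reductase subunit, TYMS (0.37), which makes thymidylate, and CDC45 (0.51), a part of the active helicase, had higher ones.

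The genes of G2 and mitosis were the class with the largest share of lower means. BUB1B, the spindle checkpoint protein BUBR1, measured 9.59, 9.99 and 9.43 in hESC, 8.45, 8.40 and 9.28 in DFNB, and 8.12, 9.21 and 9.43 in FGF3+10. All 6 day 14 arrays lay below the 3 hESC arrays, in Shef1 by very little. CCNB1, the mitotic cyclin B1, was the only other gene of the 56 to do so, with 10.58, 10.64 and 10.44 in hESC, 9.56, 9.49 and 10.40 in DFNB, and 9.15, 10.28 and 10.42 in FGF3+10. That order was found in 8.02% of all genes. The difference was -0.85 ± 0.37 for BUB1B (limma adjusted p = 0.272, and 0.186 with the block) and -0.67 ± 0.36 for CCNB1 (0.363). CCNB1 was named after its values were seen, and in Shef1 its other probe set was higher at day 14, at 8.82 in hESC, 9.03 in DFNB and 9.32 in FGF3+10. BUB1, the checkpoint kinase, measured 9.08, 10.11 and 9.67 in hESC, 7.75, 7.83 and 9.34 in DFNB, and 7.32, 8.90 and 9.76 in FGF3+10. H14 in DFNB and Shef3 in FGF3+10 were the furthest below their hESC arrays, and the mean difference of -1.14 ± 0.59 was the lowest of the 56 but did not pass (limma adjusted p = 0.346).

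The upstream stretches of the checkpoint genes BUB1B and BUB1 are shown because these have the largest statistics of the class, and because CHR elements, often placed near CCAAT boxes, are known from promoters of mitotic genes. Each is again the 200 bases before the RefSeq start in GRCh38.p14, for BUB1B chr15:40160869-40161068 (plus strand) and for BUB1 chr2:110678064-110678263 (minus strand). Capitals mark a CHR element (TTTGAA or TTTAAA) or a CCAAT box on either strand.
BUB1B: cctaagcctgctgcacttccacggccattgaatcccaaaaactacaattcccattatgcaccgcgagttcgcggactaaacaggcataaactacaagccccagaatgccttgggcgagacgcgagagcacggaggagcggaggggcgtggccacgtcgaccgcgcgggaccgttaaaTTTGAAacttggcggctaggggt
BUB1: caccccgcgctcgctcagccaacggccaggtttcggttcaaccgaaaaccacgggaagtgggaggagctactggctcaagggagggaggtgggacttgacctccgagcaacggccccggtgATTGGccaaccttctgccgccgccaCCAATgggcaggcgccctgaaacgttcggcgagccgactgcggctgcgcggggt
BUB1B held 1 CHR element and BUB1 held 2 CCAAT boxes in these stretches. Over 300 bases, a CHR element was in 15 of 21 promoters of this class (71.4%) and in 2 of 14 of S phase (14.3%), against 24.3% of all promoters. Both a CHR element and a CCAAT box were in 12 of 21 (57.1%), against 9.49%. Among promoters of genes measured here, 18.9% had a CHR element and 7.48% had both.

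CCNA2, TTK and CDK1 were lower at day 14 in Shef3 and H14. CCNA2, the cyclin of S and G2, was within 0.05 between lines in hESC at 9.65, 9.69 and 9.64, and measured 8.44, 8.19 and 9.62 in DFNB and 7.95, 9.06 and 9.66 in FGF3+10. TTK, the kinase MPS1 of the spindle checkpoint, measured 9.54, 9.35 and 9.23 in hESC, 8.29, 7.94 and 9.19 in DFNB, and 7.61, 8.84 and 9.35 in FGF3+10. CDK1, the kinase that drives entry into mitosis, measured 9.89, 10.27 and 10.35 in hESC, 9.18, 8.86 and 10.21 in DFNB, and 8.54, 9.50 and 10.24 in FGF3+10. In each of these 3 genes the day 14 arrays of Shef1 stayed within 0.15 of the hESC value of that line. Of all genes, 63.0% in Shef3 and 62.6% in H14 were lower at day 14 over both media. The mean differences were -0.84 ± 0.45, -0.84 ± 0.43 and -0.75 ± 0.44, with limma adjusted p of 0.358, 0.346 and 0.402.

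The usual proliferation markers TOP2A and MKI67 had means closer to 0. TOP2A, the topoisomerase that untangles chromosomes, measured 9.83, 10.19 and 10.33 in hESC, 10.03, 9.73 and 9.57 in DFNB, and 9.46, 10.51 and 10.61 in FGF3+10. The groups overlapped, and the difference of -0.13 ± 0.32 turned to 0.11 after quantile normalisation. MKI67, which encodes the Ki-67 antigen of cycling cells, measured 7.22, 7.58 and 6.57 in hESC, 7.40, 7.23 and 6.65 in DFNB, and 6.87, 7.89 and 6.86 in FGF3+10. Its difference was 0.03 ± 0.36, and the other 3 probe sets of the gene gave 0.39 to 0.54. Among the 17 other genes of the class, CENPF (0.09), a kinetochore protein, and CDC25B (0.25), a phosphatase that activates CDK1, had higher means at day 14. The remaining 15 were lower, from -0.80 for AURKA and -0.77 for PLK1, mitotic kinases, to -0.09 for KIF11, a spindle motor. The transcription factors MYBL2 and FOXM1 differed by -0.60 and -0.35. Cyclin B2 (CCNB2, -0.50) and the phosphatase CDC25C (-0.38) act on CDK1, and MAD2L1 (-0.67) and CDC20 (-0.66) join the checkpoint to the exit from mitosis. The kinase AURKB (-0.42) and its partner BIRC5 (-0.49), the centriole kinase PLK4 (-0.43), and the motors KIF23 (-0.69), KIF20A (-0.29) and CENPE (-0.13) make up the rest.

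The within-line values showed how far these averages rest on the choice of line. Over both media, the median day 14 difference of the S phase genes was -1.27 in Shef3 (13 of 16 lower), -0.37 in H14 (14 of 16) and 0.60 in Shef1 (0 of 16). That of the G2 and mitosis genes was -1.03 (24 of 25), -0.71 (24 of 25) and 0.15 (7 of 25). Over all genes 63.0%, 62.6% and 46.8% were lower, with medians of -0.36, -0.27 and 0.05. For the G1 class the medians were -0.32, 0.55 and 0.43, and the value in Shef3 turned to 0.29 after quantile normalisation. For the E2F and pocket proteins they were 0.06, 0.52 and 0.44. By medium, the G2 and mitosis genes were lower than hESC in DFNB for 22 of 25 in Shef3 (-0.72), 25 of 25 in H14 (-1.09) and 10 of 25 in Shef1 (0.08), where 61.1%, 61.3% and 47.3% of all genes were lower. In FGF3+10 it was 24 (-1.20), 20 (-0.36) and 4 of 25 (0.23), against 63.9%, 62.3% and 46.5%. After quantile normalisation this value of H14 in FGF3+10 was -0.10 with 16 of 25 lower, where 11226 of 19775 genes were lower. The S phase genes had medians of -1.25, -0.56 and 0.49 in DFNB and of -1.39, -0.14 and 0.71 in FGF3+10, and the value of H14 in FGF3+10 turned to 0.12 after quantile normalisation. These values rest on 1 hESC array and 1 day 14 array per line and medium and carry no test.

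**Figure D4:**
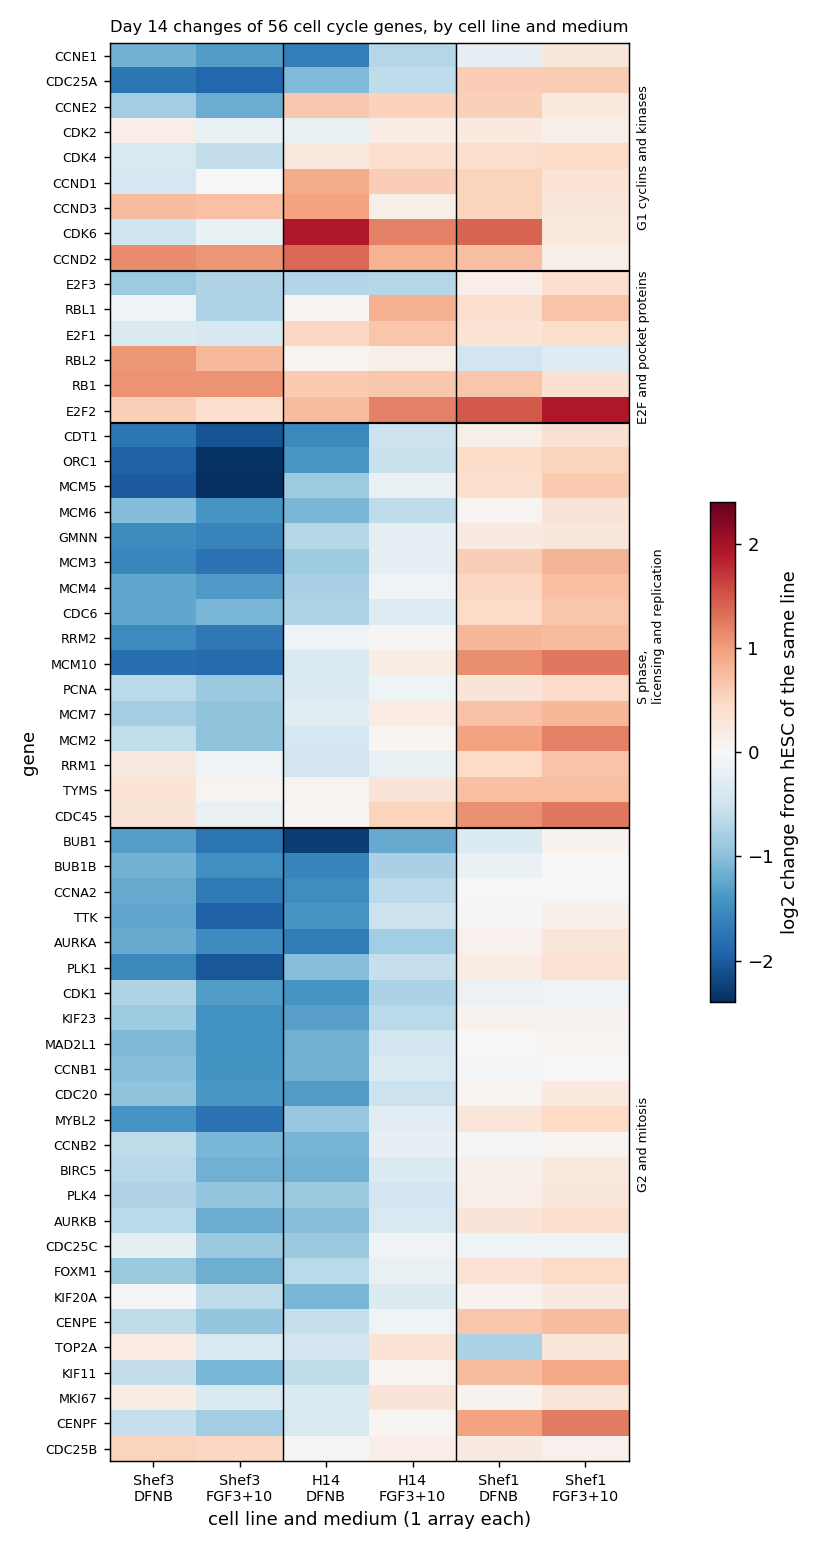
Colour gives the log2 difference of each of the 56 genes (rows, grouped by class) between 1 day 14 array and the hESC array of the same line, for 3 lines and 2 media (columns). Blue marks values below hESC and red values above it: the S phase and mitosis rows are mostly blue in Shef3 and in H14 in DFNB, and all 16 S phase rows are red in both Shef1 columns.

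In S phase genes the order of the lines turned over during differentiation. Of the 16, 14 (87.5%) were higher in Shef3 than in Shef1 in hESC and lower in Shef3 than in Shef1 on both day 14 media. So were 15 of the 25 genes of G2 and mitosis and 35 of all 56 (62.5%), against 22.3% of all genes and 27.8% of those with a mean level of at least 4. The opposite turn was found in 0 of 56, against 9.42% and 9.19%. In the moderated F test for a day 14 change that differs between lines, 0 of the 56 and 0 of all genes (0.00%) were called. At an unadjusted p under 0.05 it was 17 of the 56 (30.4%), 10 of 16 S phase genes (62.5%) and 3 of 25 of G2 and mitosis (12.0%), against 19.4% of all genes. RRM2, MCM10 and CDC25A had the largest F, each with a limma adjusted p of 0.203, and for RRM2 this is the probe set whose direction in Shef1 the other does not share. With values below 4 raised to 4, 1744 of the 13406 genes tested were called in that test, and 4 of the 56. These were RRM2 (limma adjusted p = 0.0179), MCM10 (0.0360), CDC25A (0.0422) and E2F1 (0.0478). The spread in that test comes only from each line's pair of day 14 arrays, 1 per medium. With that floor, 552 of the 13406 genes tested had the same value on both day 14 arrays of every line.

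For differences between lines that all groups share, 0 of the 56 were called, against 91 genes or 0.460% of all genes. CCND2 had the largest F, with an adjusted p of 0.0753 in limma. It was called with the floor of 4 (0.0306), without dim genes (0.0270) and with an intensity trend and robust estimation in limma (0.0156). These fits called 468 of 13406, 491 of 11502 and 616 of 19775 genes, and CCND2 alone of the 56. E2F1 and CCND3 followed, with adjusted p of 0.132 and 0.144, and like CCND2 they were lowest in Shef1 in each group. At an unadjusted p under 0.05 there were 7 of 56 (12.5%), against 20.3% of all genes.

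The averages moved when a line was left out. Without Shef1 the median day 14 difference of the 56 genes was -0.75, without Shef3 it was -0.01, and without the FGF3+10 array of Shef3 alone it was -0.18. No gene of the 56 was called in a comparison of groups when any 1 line or array was left out. Of all 19775 genes, such fits called 0 to 72 between DFNB and hESC and 0 to 32 between FGF3+10 and hESC. Between day 14 and hESC they called 1 to 238, and between the media 0. The Shef1 arrays are also those with the high poly-A spike-ins, and spike-in level and line cannot be told apart.

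Between the day 14 groups, added FGF3 and FGF10 went with higher mean levels of nearly all S phase and mitosis genes, but the lines again differed in direction. All 25 genes of G2 and mitosis were higher in FGF3+10 on average, by a median of 0.13, as were 15 of 16 S phase genes, by 0.14, and 46 of all 56, by 0.12. Without H14 the medians turned to -0.16, -0.05 and -0.09, and without the FGF3+10 array of Shef1 to -0.08, -0.11 and -0.08. Over all genes 50.5% were higher. In limma 0 of the 56 and 0 of all genes (0.00%) were called, and at an unadjusted p under 0.05 it was 0 of 56 against 1.52% of all genes, and under the block 0 of 56 against 2.72%. Within Shef3, all 25 genes of G2 and mitosis were lower with the FGFs, by a median of -0.48. Within H14 all 25 were higher, by 0.72, and within Shef1 23 were higher, by 0.13. Over all genes 60.1%, 44.5% and 47.0% were lower in these lines. The S phase genes were lower in Shef3 for 15 of 16 (-0.25), higher in H14 for 16 of 16 (0.48) and higher in Shef1 for 15 of 16 (0.18).

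The opposite signs in Shef3 and H14 were common among all genes, though less so. Of the 56, 48 (85.7%) were lower with the FGFs in Shef3 and higher in H14, against 38.7% of all genes and 46.5% of those with a mean level of at least 4. The reverse was found in 2 of 56, against 23.1% of all genes and 21.7% of the brighter ones. CDK1 showed the size of these values, at 9.18 in DFNB and 8.54 in FGF3+10 in Shef3 and at 8.86 and 9.50 in H14. With 1 array per line and medium, none of these has a replicate check.

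**Figure D5:**
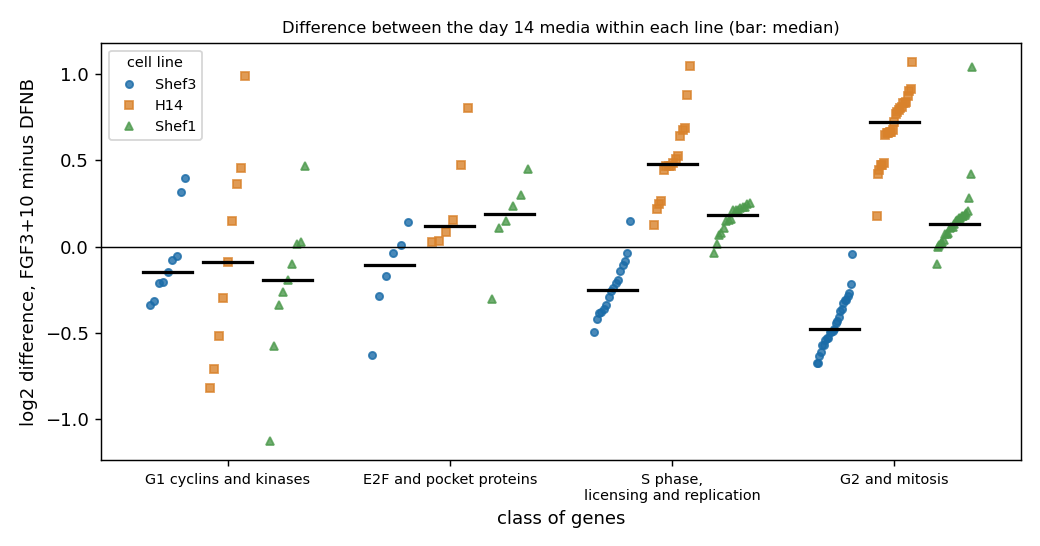
Each point is the log2 difference of 1 gene between the FGF3+10 and the DFNB array of the same line (vertical axis), by class (horizontal axis) and line (colour and symbol), with the median of each class as a bar. For G2 and mitosis the medians are -0.48 in Shef3, 0.72 in H14 and 0.13 in Shef1.

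Other genes of the pathway, from lists that hold none of the 56, had no calls either. Over all genes 1.40% were called and 61.9% were lower at day 14, with a median of -0.19. Among 37 other replication genes 28 were lower at day 14, with a median of -0.33, and 0 were called. Their largest statistics were those of WDHD1, a fork protein, at -1.57 ± 0.65 (limma adjusted p = 0.254), and ORC2, another subunit of the origin complex, at -1.11 ± 0.49 (0.278). Among 41 other mitosis genes 37 were lower, with a median of -0.39 and 0 called, led by CDCA5, the cohesin regulator sororin, at -0.87 ± 0.37 (0.268) and CKS2, a CDK1 partner, at -0.83 ± 0.35 (0.262). In the test of a day 14 change that differs between lines, 15 of the 37 replication genes (40.5%) and 2 of the 41 mitosis genes (4.88%) had an unadjusted p under 0.05, against 19.4% of all genes. The lines differed here as well: in the order above the replication genes had medians of -1.04, -0.49 and 0.44, and the mitosis genes -0.87, -0.61 and 0.20.

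The inhibitors of the cycle had higher means. Of 6 CDK inhibitors 4 were higher at day 14, with a median of 1.02 and 0 called. By line the medians were 2.03 in Shef3 and 1.18 in H14, while in Shef1 5 of the 6 were lower, with a median of -0.39. CDKN1A, which encodes p21, differed by 1.51 ± 0.68 (limma adjusted p = 0.285) and CDKN2B, which encodes p15, by 2.16 ± 1.02 (0.305). CDKN1A measured 6.25, 7.94 and 8.44 in hESC, 9.07, 10.43 and 8.55 in DFNB, and 9.90, 8.78 and 7.60 in FGF3+10, so it was higher in Shef3 and H14 and within 1 of its hESC level in Shef1. Of 15 other E2F, DREAM and MYC family genes 9 were lower, a share near that of all genes, with a median of -0.17 and 0 called, led by MYC at -1.11 ± 0.44 (0.238) and TFDP2, an E2F partner, at -0.86 ± 0.44 (0.339).

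Levels of cell type markers differed between the same arrays. The 11 pluripotency markers averaged 10.76, 10.09 and 9.05 in hESC, 2.85, 6.86 and 8.24 in DFNB, and 2.90, 8.15 and 8.26 in FGF3+10. The medians were 11.10, 10.21 and 10.85, then 5.95, 7.25 and 9.64, then 5.0, 8.88 and 9.14. ZFP42 at -0.48 lowered the hESC mean of Shef1, and NANOG and PRDM14, far below 4, the day 14 means of Shef3. By mean, at day 14 Shef1 was the nearest to its hESC level and Shef3 the furthest. By median H14 was the nearest in FGF3+10. Below a level of 4 was 1 of the 11 on each Shef1 array, against 4 and 5 on the day 14 arrays of Shef3. NANOG, a defining factor of hESC, measured 11.10, 10.21 and 10.73 in hESC, -10.17, 6.33 and 9.64 in DFNB, and -7.62, 7.72 and 9.14 in FGF3+10. The 10 mesenchyme markers averaged 7.55, 8.09 and 8.72 in hESC, 10.90, 10.02 and 8.48 in DFNB, and 10.29, 8.12 and 6.61 in FGF3+10, highest in Shef3 and in H14 in DFNB. In hESC their medians were 8.65, 8.45 and 8.45, as MGP at -4.97 lowered the mean of Shef3. The 9 neuron markers averaged 5.36, 6.56 and 5.95, then 7.39, 8.44 and 6.76, then 7.90, 6.67 and 5.86, highest in H14 in DFNB and in Shef3 on both media.

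Among markers of neural and otic cells, the 10 of neural progenitors had their highest mean in Shef1 on both day 14 media. NES and VIM, however, were lowest in Shef1 on both. Of these 10 markers, 4 were lower than in hESC in Shef3 on each medium. In H14 it was 2 in DFNB and 5 in FGF3+10, and in Shef1 it was 1 and 0. The otic markers averaged between 5.21 and 5.96 on all day 14 arrays, with medians from 4.17 to 6.34. The 10 neural progenitor markers averaged 4.89, 5.78 and 5.27 in hESC, 7.68, 6.41 and 8.53 in DFNB, and 7.89, 7.61 and 8.88 in FGF3+10, and the 9 otic and preplacodal markers 3.22, 3.89 and 3.45, then 5.76, 5.68 and 5.48, then 5.52, 5.96 and 5.21. The 8 endoderm markers averaged 8.88, 8.18 and 7.24 in hESC, 3.83, 5.21 and 4.94 in DFNB, and 5.15, 4.65 and 3.43 in FGF3+10, lower at day 14 in each line. In Shef3 their medians were 9.64 in hESC, 5.49 in DFNB and 5.54 in FGF3+10. The part of any of these cell types in the cell cycle values was not tested.

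Of the 56 genes, 39 had more than 1 probe set, and 47 of the 72 others had a mean level of at least 4. Of those 47, 5 differed in sign from the one used in the day 14 difference, and they were in CDK6, CCNE2, E2F3 and MCM7. Within a line the probe sets differed more often: over both media the sign of the day 14 difference was not that of the one used for 2 of the 47 in Shef3, 12 in H14 and 14 in Shef1. For 24 genes the probe set used is of the kind that can match several transcripts of a gene or family (_s_at), and for CDT1 and FOXM1 of the kind that can match other genes (_x_at), so part of their signal may not be their own.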

How the data were processed

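Expression was measured on 9 Affymetrix arrays, 1 for each of 3 cell lines in each of 3 groups. Per the deposited table, the authors' values are log-scale levels per probe set, taken here as log2, with each array at a median of 3.20 and values from -14.4 to 13.3. The sources used here do not give the software, the probe summary, the background correction or the base. Of 54675 probe sets, 62 were controls, 41091 had 1 gene symbol, 1801 several and 11721 none. Symbols were updated through Entrez identifiers (41037 matched), and the brightest probe set on average stood for each of 19775 genes.

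Differences were fitted with limma 3.58.1 in R 4.3.3 (lmFit and eBayes) on the log2 values of all 9 arrays with a mean per group, without a filter. P-values were adjusted by Benjamini-Hochberg over all genes and called under 0.05. Lines were compared by the moderated F test with group and line as terms, and line by day with both media as day 14. The steps were tested on simulated data. Arrays are paired by the cell line label, and deviations from group means correlated within Shef3, H14 and Shef1 at 0.105, 0.0861 and 0.338 (hESC with DFNB), 0.181, 0.258 and 0.283 (hESC with FGF3+10) and 0.400, 0.331 and 0.713 (DFNB with FGF3+10).

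Members and lists were chosen with earlier results of these data known. Per class, the 4 genes with the largest moderated t at day 14 are given by array, together with CCND1, CCND2, CCNE1, CDK1, PCNA, MCM2, RB1, TOP2A and MKI67, any gene called, and the 3 with the largest F between lines and of line by day. Of the other lists the 2 genes with the largest t are named. Medians over classes carry no test. Promoters were taken from a RefSeq table (GRCh38.p14) by symbol. Alternatives were the line as block, quantile normalisation, a floor of 4, genes with a mean of at least 4 only, the mean of all probe sets, an intensity trend with robust estimation, and leaving out each line and each array.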

Additional observations from a re-analysis of the deposited data

Results flagged for a closer look

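Class medians that had opposite signs in different cell lines are listed here. The differences between lines were not tested for the classes. The median day 14 difference from hESC was -0.32 in Shef3 and 0.43 in Shef1 for the G1 cyclins and kinases, -1.27 and 0.60 for the S phase genes, and -1.03 and 0.15 for the G2 and mitosis genes, in each case with the same sign on both day 14 arrays of the line. After quantile normalisation the value of the G1 class in Shef3 was 0.29, so its opposite sign rests on the scaling. The median difference between FGF3+10 and DFNB was -0.25 in Shef3 and 0.48 in H14 for the S phase genes, and -0.48 and 0.72 for the G2 and mitosis genes. For the E2F and pocket proteins it was -0.10 and 0.12. After quantile normalisation these 2 values were -0.02, with 3 of 6 genes lower in Shef3, and 0.13. Each value rests on 1 array per line and medium.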

How the results depend on the processing

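No cell cycle gene was called in any comparison of groups under any alternative run. Counts over all genes moved more. With the cell line as replicate block they were 189 (DFNB and hESC), 115 (FGF3+10 and hESC) and 612 (day 14 and hESC), with the floor of 4 they were 183, 123 and 479, and with the intensity trend 161, 81 and 464. Without dim genes the first pair was 122 and 66. Leaving out a line or an array gave 0 to 72, 0 to 32 and 1 to 238. Between lines the counts were 58 after quantile normalisation, 468 with the floor, 491 without dim genes, 217 with the mean of probe sets and 616 with the trend, and 1 gene of the 56 was called with the floor, without dim genes and with the trend. For line by day the floor gave 1744 genes and 4 of the 56, and the trend gave 4 genes. The E2F and pocket protein median in DFNB was 0.375 with the mean of probe sets. Quantile normalisation left 6 of the 56 lower in FGF3+10 than in DFNB. Leaving out lines or arrays gave 6 to 46 for that count and 21 to 43 lower in FGF3+10 than in hESC. It moved the E2F and pocket protein median to 0.0627 to 0.426 (DFNB), -0.0934 to 0.255 (FGF3+10 minus DFNB) and 0.148 to 0.483 (day 14), and the G1 median to -0.213 to 0.0144 (FGF3+10 minus DFNB) and -0.0507 to 0.397 (FGF3+10 minus hESC). Of 1800 values of named genes under alternatives, 145 changed sign, 132 of them when a line or array was left out. Where values moved, the cause was not tested. The number of arrays limits what can be told apart.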
